A study of Mus musculus with 12 samples.

Results

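The growth of normal mouse oocytes was described here from the poly(A) RNA of wild-type (WT) oocytes of postnatal day 14, which the labels call growing germinal vesicle (GV) oocytes, and of WT oocytes of day 21, called GV oocytes. Of the 23235 gene symbols measured, 11078 had a mean of at least 1 FPKM over these ages and were kept. FPKM are read fragments scaled to transcript length and to the mapped fragments of the library. The genes left out were 734 short RNA loci (symbols that begin with Mir, Snor, Scarna or Rnu) and 11423 genes under 1 FPKM. Each group had 3 libraries in the labels, each of 10 oocytes of the ovary, and libraries followed the Smart-seq2 protocol, which primes on poly(A) tails, covers whole transcripts and loses the strand. The design text speaks of duplicates. Mtr4-null oocytes of the same ages, which lack the RNA helicase MTR4 of the nuclear RNA decay machinery, formed the other groups of the study. Neither the deleted stretch, nor a Cre driver, nor a strain is given in the sources used here.

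The values were 1 mean per gene and group, as the authors averaged it. No replicate error, no test and no p-value can therefore be given, and sequencing depth is unknown. Only the size of a difference is reported, as log2(FPKM + 1) at day 21 minus day 14, a scale on which the fold of a weakly expressed gene appears too small. A gene was counted as higher or lower where that difference reached 1, a 2-fold difference on this scale. Below, 2-fold, 1.5-fold and within 2-fold refer to this scale, and the fold of the FPKM themselves can be larger. FPKM are shares of a library's RNA: RNA content per oocyte cannot be seen in them.

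The mouse oocyte grows over about the first weeks of life inside its follicle, while arrested in meiotic prophase at the germinal vesicle stage. During growth it makes its egg coat, secretes factors that direct the surrounding granulosa cells, and stores mRNAs and proteins for meiosis and for the early embryo. Towards the end of growth it gains the ability to resume meiosis, its chromatin condenses around the nucleolus and transcription ceases. Stored mRNAs are then used, re-tailed or degraded without new transcription, so the poly(A) pool can alter both by mRNA amount and by tail length.

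The poly(A) RNA of both ages was much alike. Of the 11078 genes, 230 (2.08%) were at least 2-fold higher and 357 (3.22%) at least 2-fold lower at day 21, and 10491 lay within 2-fold. The median difference was 0.01, and the central 90% of genes lay between -0.86 and 0.75. Across genes, Pearson's r of log2(FPKM + 1) between the ages was 0.97, which describes these means only, since genes are not independent replicates. Most called genes were of low or middle level. Of 3449 genes with a mean of 1 to 5 FPKM, 103 were higher and 149 lower, and of 1166 genes over 100 FPKM, 6 were higher and 9 lower. A limit of 1.5-fold, added after the data were seen, gave 1003 higher genes (9.05%) and 1216 lower genes (11.0%). At the limit, 2310036O22Rik (from 16.8 FPKM at day 14 to 34.7 FPKM at day 21) was just counted as higher and Ffar2 (from 1.1 to 3.2 FPKM) was not. Tgfbr1 (from 11.8 to 5.37 FPKM) was just counted as lower and Marveld2 (from 25.7 to 12.3 FPKM) was not.

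**Figure D1:**
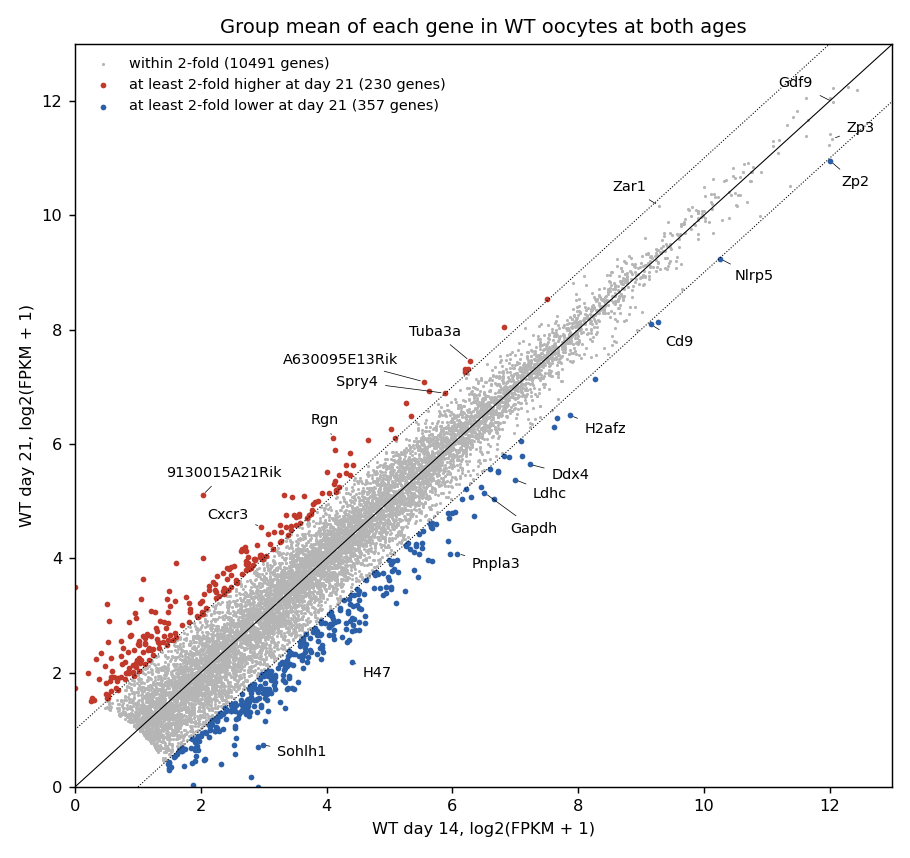
Each point is a gene, with its mean level in WT oocytes of day 14 on the x axis and of day 21 on the y axis, both as log2(FPKM + 1). The solid line marks equal levels and the dotted lines a 2-fold difference. The 230 red and 357 blue genes lie outside the dotted lines, mostly at low and middle levels, with Zp2, Nlrp5 and Cd9 among the abundant genes that were lower.

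The label of these samples was checked against marker genes. All 15 oocyte markers passed the filter, and their FPKM summed to 25825 at day 14 and 20749 at day 21. Most markers of follicle and other ovarian cells were under 1 FPKM at both ages, with exceptions given here. Of 22 granulosa markers 6 passed and 16 were under 1 FPKM at both ages, among them Foxl2, Amh, Inhba and Wnt4, and the list summed to 31.2 and 45.2 FPKM. The largest change in that sum was of Cyp19a1, which encodes aromatase, with 10.5 FPKM at day 14 and 25.3 FPKM at day 21. Cyp19a1 was the only granulosa marker called, and the median of all kept genes was 11.3 and 11.4 FPKM. Of 19 theca and stroma markers only Hsd3b1 passed, from 3.97 to 0.321 FPKM. Endothelial markers summed to 17.2 and 25.1 FPKM, most of it Pecam1 (13.2 and 20.7 FPKM), and blood markers to 2.82 and 1.82 FPKM. Fewer cells of a type and less RNA per cell cannot be told apart in such pooled samples.

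The most abundant RNAs were largely the same at both ages. Of the 100 genes with the highest FPKM at each age 91 were shared, and the 100 held 27.5% of all FPKM at day 14 and 26.7% at day 21. Ldhb, which encodes the heart type lactate dehydrogenase subunit, led at day 14 with 5516 FPKM and stood at 4690.4 FPKM at day 21. The growth factor gene Gdf9 stood at 4247 and 4054 FPKM. The SCF ubiquitin ligase subunit gene Skp1a stood at 3220.4 and 3255 FPKM. These 3 genes thus differed little beside their level. Among genes of similar abundance, those of the egg coat and of the cytoplasmic lattices stood lower at day 21, as given below. The WNT regulator gene Zbed3 (from 3175 to 4275 FPKM), the linker histone gene H1foo (from 2856 to 3632 FPKM) and the securin gene Pttg1 (from 2747 to 3373 FPKM) stood higher, each within 2-fold.

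Among genes with at least 10 FPKM, one of the 25 largest positive differences was that of Rgn, which encodes the calcium-binding regucalcin and went from 16.1 FPKM at day 14 to 67.8 FPKM at day 21. Nmu, the gene of the neuropeptide neuromedin U, went from 9.05 to 33.4 FPKM, and Rrh, which encodes the opsin-like receptor peropsin, from 3.11 to 15.1 FPKM. The chemokine receptor gene Cxcr3 went from 6.79 to 22.5 FPKM and the serotonin receptor gene Htr5a from 5.2 to 16.4 FPKM. Cmtm8, of the MARVEL membrane protein family, went from 16.6 to 58.5 FPKM. Epsti1, an interferon-induced gene in other tissues, went from 19.8 to 56.3 FPKM.

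Fetub, the gene of fetuin-B, an inhibitor of the egg protease ovastacin, was among the 25 largest positive differences, from 37.4 to 104 FPKM. Fkbp5, a co-chaperone of HSP90, went from 15.1 to 44.3 FPKM. Haus7, of the augmin complex that branches spindle microtubules, went from 11.4 to 32.9 FPKM, and the cAMP-binding Popeye protein gene Popdc2 from 4.33 to 13.3 FPKM. Ppap2a, a lipid phosphate phosphatase gene, went from 24.3 to 65.9 FPKM. Its exons overlap those of Mtrex on the opposite strand, and reads without strand cannot be told apart there. Mtrex itself, listed under its older symbol Skiv2l2, stood at 27.6 and 26.3 FPKM in WT oocytes. A630095E13Rik, a protein-coding gene that RefSeq lists as Pate14, went from 45.7 to 135 FPKM, and the long non-coding 9130015A21Rik from 3.08 to 33.4 FPKM. Gm12238, a snoRNA locus in RefSeq, was listed at 0 at day 14 and at 10.3 FPKM at day 21.

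Among the largest negative differences, H47, now Selenos, a selenoprotein gene of degradation at the endoplasmic reticulum (ER), went from 20.2 FPKM at day 14 to 3.53 FPKM at day 21. The ER thioredoxin gene Tmx1 went from 14 to 3.72 FPKM, and the lipid hydrolase gene Pnpla3 from 66.7 to 15.9 FPKM. Hsd17b10, a dehydrogenase and subunit of mitochondrial RNase P, went from 43 to 11.8 FPKM. The carrier gene Slc25a30 went from 23.5 to 6.32 FPKM. Uqcrc1, a core subunit of complex III, went from 59.7 to 18.8 FPKM.

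Snai1, a zinc finger repressor, went from 61.1 to 15.8 FPKM, and Tgif1, a homeobox repressor, from 50.4 to 14.5 FPKM. Id3, an inhibitor of helix-loop-helix factors, went from 79.9 to 25.7 FPKM. Dr1, a repressor that binds TBP, went from 37 to 9.81 FPKM. All of these genes were among the 25 largest negative differences. The most abundant of the 25 was Ldhc, the germ cell lactate dehydrogenase subunit gene, from 127 to 40.6 FPKM, followed by the splicing factor gene Cwc22 from 99.9 to 31.9 FPKM. The chaperonin subunit gene Cct6a went from 40.9 to 12.9 FPKM.

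**Figure D2:**
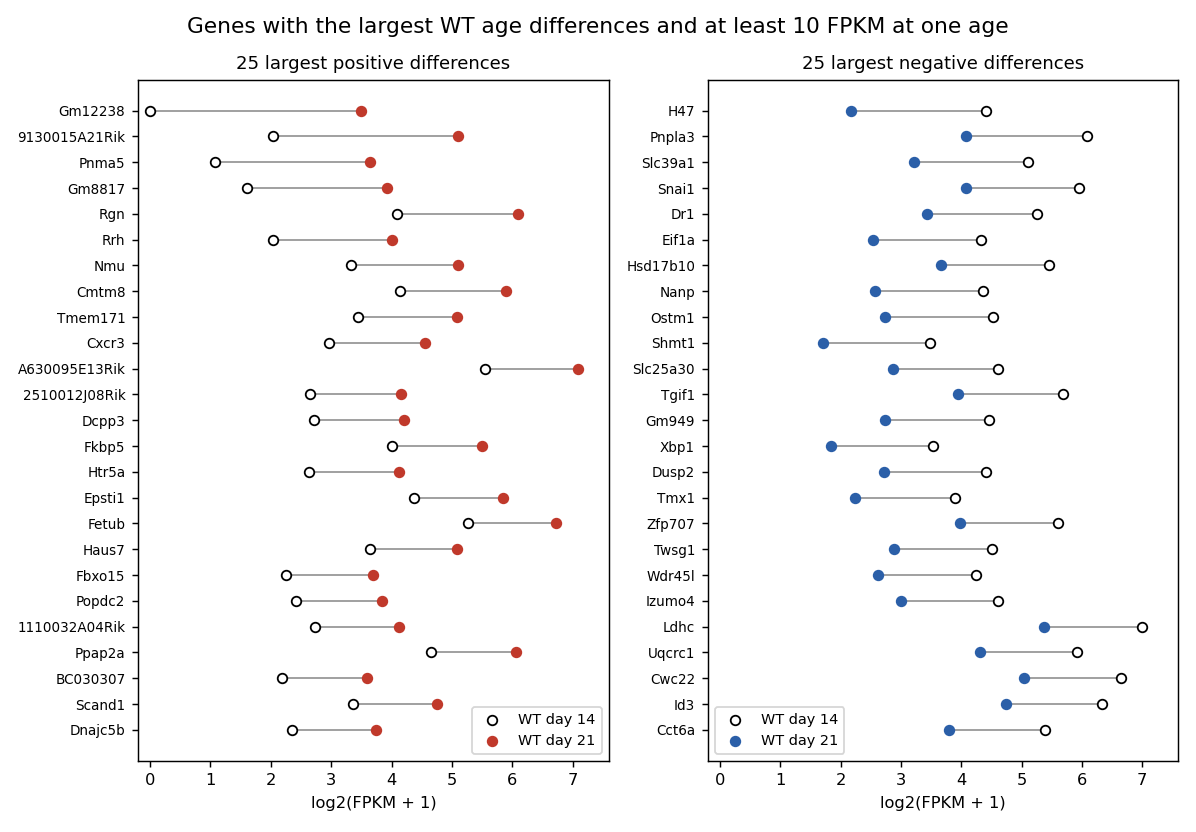
Levels of the 25 genes with the largest positive (left) and negative (right) WT differences among genes with at least 10 FPKM at either age, as log2(FPKM + 1); open circles are the means of day 14 and filled circles those of day 21. Gm12238 starts at 0, and Rgn and H47 show differences of 2.01 and -2.23 log2 units.

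The starts of the 2 sets of genes differed in sequence, mostly at low and middle level. Many mammalian genes that are on in most tissues start in a stretch rich in CG dinucleotides, whereas many tissue-restricted genes do not. In the first 300 bases of the transcript, genes higher at day 21 had a median of 13 CG dinucleotides (quartiles 6 and 23.5, 199 genes with a transcript). Genes lower at day 21 had a median of 20 (339 genes), the same as all kept genes (10466 genes). Fewer than 10 were found in 41.7% of the higher genes, 16.8% of the lower genes and 18.1% of all. The gap was widest among genes of low level. At 1 to 5 FPKM the medians were 8 for higher, 20 for lower and 19 for all genes. At 20 FPKM or more they were 21, 17 and 20, so the order of the medians was reversed there. Fewer than 10 were still found in 30.3% of the higher genes of that level, 15.4% of the lower and 14.2% of all. The first 150 bases, added as an alternative after the data were seen, gave 6, 12 and 12. Annotated 3′ UTRs had a median length of 503 bases in the higher, 954 in the lower and 883.5 in all genes. At 20 FPKM or more these were 604, 475 and 682 bases, so the order was not kept there. These are descriptions, and 86.5% of the higher genes and 95% of the lower ones had such a transcript start.

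**Figure D3:**
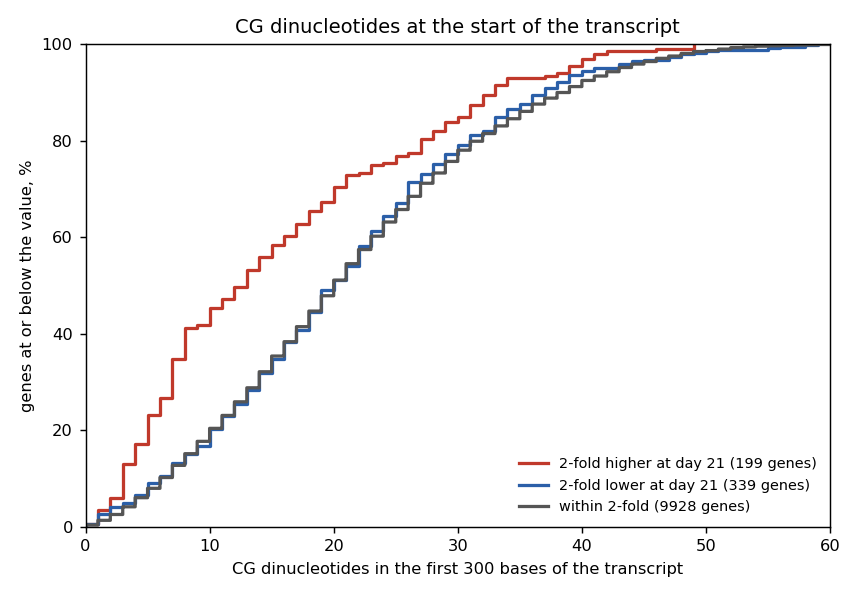
Share of genes (y axis, percent) with at most the given number of CG dinucleotides in the first 300 bases of the transcript (x axis). The red curve of 199 genes 2-fold higher at day 21 runs above the blue curve of 339 lower genes and the grey curve of the genes within 2-fold over most of the range.

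Promoters of 3 genes from either end are shown as examples. Each runs from 250 bases before to 50 bases after the RefSeq start, 5′ to 3′, on build GRCm38.p6, with CG dinucleotides in capitals. This is another stretch than the first 300 bases of the transcript counted above. In those 300 bases Pnma5 has 3, Rrh 11 and Nmu 12 CG dinucleotides, and H47 has 19, Pnpla3 30 and Slc39a1 13. RefSeq promoters were matched for 74.8% of higher and 76.5% of lower genes, under the 80% needed here, so no share over promoters is given. The higher genes shown are Pnma5 (chrX:73037054-73037353, minus strand, 1 CG), of the paraneoplastic antigen family, Rrh (chr3:129822456-129822755, minus strand, 4 CG) and Nmu (chr5:76363728-76364027, minus strand, 21 CG). The lower genes are H47 (chr7:66079399-66079698, plus strand, 23 CG), Pnpla3 (chr15:84167566-84167865, plus strand, 15 CG) and Slc39a1 (chr3:90247942-90248241, plus strand, 23 CG).
Pnma5: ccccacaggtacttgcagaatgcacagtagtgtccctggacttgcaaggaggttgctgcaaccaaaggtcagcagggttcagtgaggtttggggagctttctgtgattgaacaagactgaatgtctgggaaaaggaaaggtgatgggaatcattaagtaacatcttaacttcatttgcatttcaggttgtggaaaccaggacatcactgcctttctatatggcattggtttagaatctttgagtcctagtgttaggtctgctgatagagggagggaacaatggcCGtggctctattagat
Rrh: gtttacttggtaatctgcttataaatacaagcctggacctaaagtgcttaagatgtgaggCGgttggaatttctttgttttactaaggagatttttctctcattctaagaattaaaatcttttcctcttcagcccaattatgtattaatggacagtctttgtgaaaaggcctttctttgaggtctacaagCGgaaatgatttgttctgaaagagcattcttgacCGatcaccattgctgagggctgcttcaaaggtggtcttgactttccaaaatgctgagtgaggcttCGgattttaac
Nmu: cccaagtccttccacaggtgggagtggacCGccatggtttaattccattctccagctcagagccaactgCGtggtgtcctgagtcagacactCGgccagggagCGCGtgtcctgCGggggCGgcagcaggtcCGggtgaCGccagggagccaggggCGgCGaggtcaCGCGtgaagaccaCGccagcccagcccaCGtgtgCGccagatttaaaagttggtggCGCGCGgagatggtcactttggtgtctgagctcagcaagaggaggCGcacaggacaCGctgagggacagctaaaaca
H47: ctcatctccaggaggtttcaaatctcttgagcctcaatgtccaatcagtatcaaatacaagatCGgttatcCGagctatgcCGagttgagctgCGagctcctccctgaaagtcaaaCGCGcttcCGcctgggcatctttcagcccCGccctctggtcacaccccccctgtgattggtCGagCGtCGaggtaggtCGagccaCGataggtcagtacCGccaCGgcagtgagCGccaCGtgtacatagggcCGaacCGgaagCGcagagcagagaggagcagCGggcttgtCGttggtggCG
Pnpla3: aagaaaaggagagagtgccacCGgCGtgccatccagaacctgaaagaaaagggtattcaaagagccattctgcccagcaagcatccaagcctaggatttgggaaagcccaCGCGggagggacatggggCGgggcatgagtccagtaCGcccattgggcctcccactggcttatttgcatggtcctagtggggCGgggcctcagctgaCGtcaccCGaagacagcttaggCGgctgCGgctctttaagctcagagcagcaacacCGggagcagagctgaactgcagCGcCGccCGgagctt
Slc39a1: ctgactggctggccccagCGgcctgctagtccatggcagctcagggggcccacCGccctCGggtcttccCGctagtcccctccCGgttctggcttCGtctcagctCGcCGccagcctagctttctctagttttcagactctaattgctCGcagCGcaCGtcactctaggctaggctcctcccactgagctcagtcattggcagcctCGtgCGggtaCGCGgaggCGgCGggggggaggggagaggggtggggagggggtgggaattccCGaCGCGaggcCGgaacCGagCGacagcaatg

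The genes were then described by function, with 69 lists of genes. Their 2185 kept members held 29 higher (1.33%) and 61 lower genes (2.79%), and 19 lists held none. The counts were small: no list held more than 3 higher or 4 lower genes. Of all called genes, 160 higher and 248 lower ones were in no list, by function or by name. The lists do not hold every gene of a function, so each count covers listed genes only. Each count below can be read against 2.08% higher and 3.22% lower among all genes, and each median against 0.01. Genes named within 2-fold that are not among the 4 most abundant of their list, and called genes under 5 FPKM, were chosen after their values were seen. Where exons of named genes overlap a neighbour, reads may belong to either. Besides those pointed out, this holds for Nmu, Tuba3a, Tubb4b, Arf4, Tnpo3, Sec61a2, Slc6a9, Lrrc8a, Kdm1b, Ctsb, Sycp3, Foxl2, Ccna2, Ccne2, Ell2, Tgif2 and Snhg6, all on the opposite strand, for Slc5a3 on the same strand and for Atp6v0a4 on both.

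**Figure D4:**
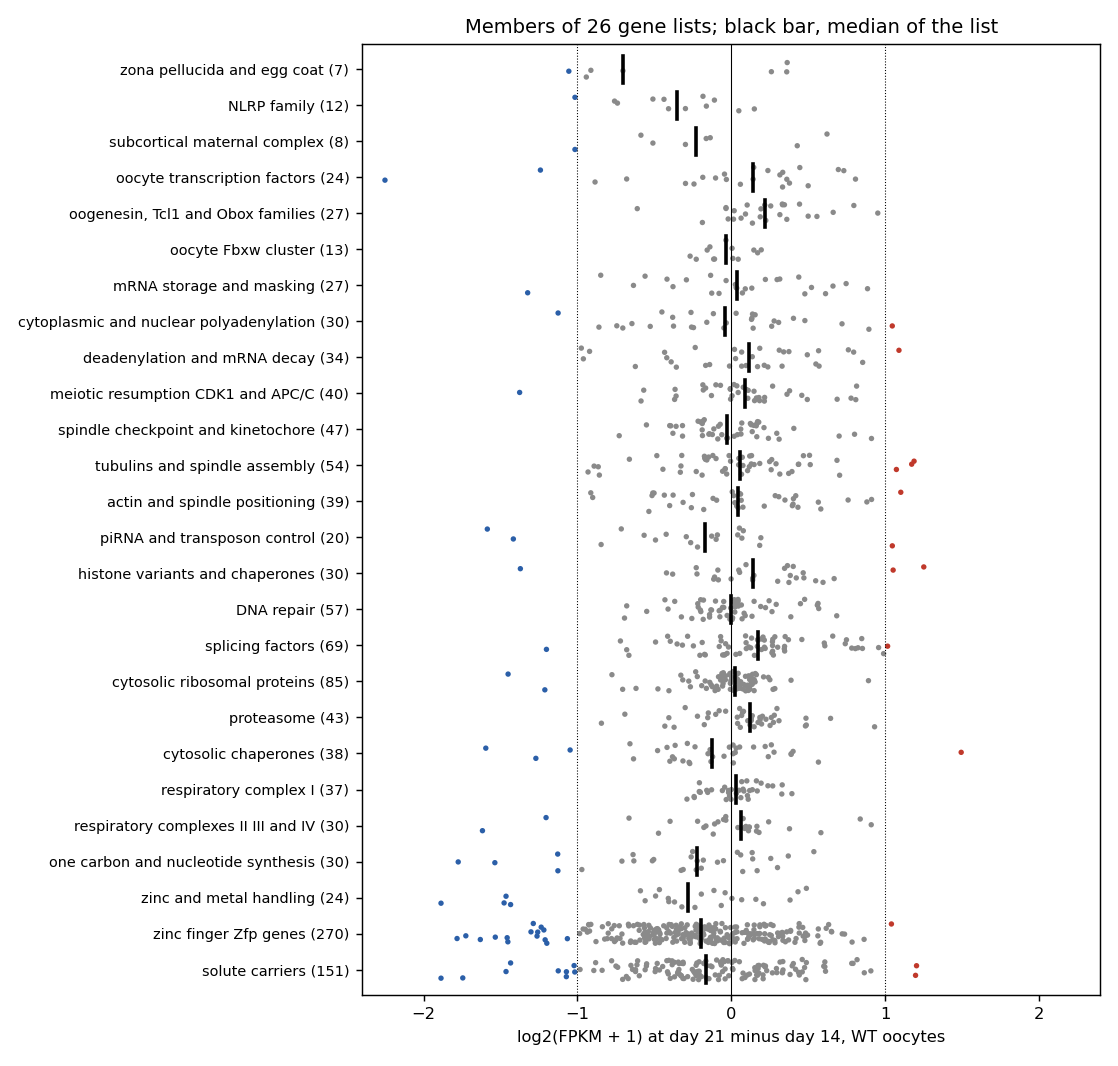
Difference of each kept member (points) of 26 gene lists between WT day 21 and day 14, in log2(FPKM + 1), with the number of members in parentheses and the median of each list as a black bar. Red and blue points lie beyond 2-fold, at the dotted lines. The egg coat list has the lowest median, at -0.70, and no member of respiratory complex I lies far from 0.

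Genes of the zona pellucida, the glycoprotein coat of the egg, stood lower at day 21. Of 7 egg coat genes 1 was lower and none higher, and the median was -0.70. Zp2, whose product sperm binds, went from 4120.3 FPKM at day 14 to 1982 FPKM at day 21, a difference of -1.06, or -0.97 under quantile normalization. Zp1, whose product crosslinks zona filaments, went from 1911 to 1015 FPKM, and Zp3 from 4211 to 2585 FPKM. Astl, the gene of the protease ovastacin, which cleaves ZP2 after fertilization, went from 801 to 416 FPKM. These 4 genes moved by -0.70 to -1.06, just around the 2-fold limit. The oocyte secreted protein genes of the list stood the other way, with Oosp1 from 1596 to 1913 FPKM, Gm97 from 1405 to 1808 FPKM and Plac1l from 861 to 1106 FPKM. Together the list held 2.49% of all FPKM at day 14 and 1.79% at day 21.

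The main growth factors of the oocyte were close between the ages. Of 7 kept ligand genes 1 was higher, Fgf10, at low FPKM (0.506 and 3.07). Gdf9 and Bmp15, the partners that govern granulosa cell growth, differed by -0.07 and -0.01, Bmp15 with 1748 and 1741 FPKM. Fgf8, which promotes glycolysis in cumulus cells, stood at 136 and 124 FPKM, and Tgfb2 at 139 and 159 FPKM.

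Among 15 surface receptors 2 were higher and 1 lower. Egfr, the receptor of EGF-like ligands, went from 7.37 to 20.6 FPKM, and Fgfr2, a receptor of FGFs, from 6.11 to 13.8 FPKM. An exon of Fgfr2 overlaps Ctbp2 on the same strand. Tgfbr1, the type I receptor of TGF-beta, was the lower one, and its call was lost under both other scalings. Kit, the receptor for the granulosa ligand that drives growth, stood at 90.8 and 85.2 FPKM, and the constitutively active Gpr3, which keeps cAMP high, at 41.1 and 39.4 FPKM. These 2 receptors of growth and arrest differed by -0.09 and -0.06.

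Downstream of the receptors few of the listed genes differed. Of 31 genes of PI3K, mTOR and FOXO3 signalling 1 was higher and 1 lower, namely Ddit4 and Eif4ebp1. Eif4ebp1, an mTOR target that holds back the cap-binding protein eIF4E, went from 13.5 to 4.89 FPKM, and Ddit4, an inhibitor of mTOR, from 3.73 to 8.85 FPKM. The mTOR activator gene Rheb stood at 101 and 118 FPKM. Of 20 listed genes of the MAPK pathway 1 was higher and none lower. The higher one was the feedback inhibitor gene Spry4, from 57.7 to 118 FPKM. Its difference of 1.01 was 0.98 under quantile normalization. The list leaves out the MAPK phosphatase gene Dusp2, among the 25 largest negative differences, which went from 20.2 to 5.59 FPKM. Mos, the kinase gene that starts the cascade in maturing eggs, stood at 683 and 535 FPKM.

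Transcription factors of the oocyte stood in both directions. Among 24 oocyte factors were 2 lower genes and no higher one, and the median was 0.14. Sohlh1, which acts in primordial and early growing oocytes, went from 6.91 to 0.662 FPKM. Tbpl2, a TBP paralogue that drives oocyte transcription, went from 44.6 to 18.3 FPKM, and Figla, an activator of the zona genes, from 159 to 85.6 FPKM within 2-fold. Other factors of growing oocytes lay closer, with Nobox at 665 and 541 FPKM and Lhx8 at 172 and 166 FPKM. Obox2 (from 1025 to 1449.8 FPKM) and Pou5f1 (from 34.1 to 55.9 FPKM) stood higher within 2-fold. Reads may be shared between Obox1 and Obox2, which overlap. None of the 85 genes listed for RNA polymerases and general transcription factors differed 2-fold. Genes of this machinery outside the list, such as Dr1, lower as given above, are not counted there.

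Most genes of the subcortical maternal complex and of the NLRP family, some of which are needed by the embryo, stood lower. Of 8 complex genes 6 lay below 0, with a median of -0.23. Nlrp5 (MATER) was the lower one called, from 1224 to 605 FPKM, and Padi6, needed for the cytoplasmic lattices, went from 4112 to 2737 FPKM. Zbed3 and 2410004A20Rik stood higher within 2-fold. Of 12 NLRP genes 10 lay below 0, with a median of -0.35. At 2-fold 1 was lower, again Nlrp5, and at 1.5-fold 3 were (25%, against 11.0% of all genes). Nlrp14 went from 4055 to 2396 FPKM. The share of all FPKM in this family was 1.34% at day 14 and 0.876% at day 21. Its members are similar in sequence, so reads may have been shared among them.

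The wider list of maternal effect genes had a median above 0. Of 34 genes 1 was lower, Nlrp5, and the median was 0.14. Dppa3 (STELLA), a protector of maternal DNA methylation, stood at 2202 and 2386 FPKM, and Tle6 at 1729 and 1544 FPKM. Zar1, an mRNA-binding factor of the oocyte, went from 623 to 1151 FPKM, a difference of 0.89.

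Genes that store, re-tail and degrade mRNA stood in both directions. Of 27 storage and masking genes 1 was lower, Patl2, a repressor of translation needed for oocyte maturation, from 195 to 77.4 FPKM. Zar1l went from 363 to 493 FPKM within 2-fold, while the 3′ UTR-binding factors Dazl (462 and 377 FPKM) and Cpeb1 (315 and 322 FPKM) differed by -0.29 and 0.03. Of 30 polyadenylation genes 1 was higher and 1 lower. Fip1l1, a subunit of the cleavage and polyadenylation complex, went from 72.7 to 151 FPKM, and Clp1, of the cleavage factor, from 12.3 to 5.11 FPKM. Exons of Fip1l1 overlap Lnx1 on the opposite strand.

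In deadenylation and decay, 1 of 34 listed genes was higher and none lower, with a median of 0.12 and 22 members above 0. This list leaves out the decay gene Lsm1, which was lower and is counted in the splicing list below. Cnot3, a subunit of the CCR4-NOT deadenylase, went from 19.7 to 43.1 FPKM, and its catalytic subunit gene Cnot7 from 92.7 to 168 FPKM. Both overlap a neighbour on the opposite strand. Btg4, the adaptor that recruits CCR4-NOT in maturing eggs, stood at 1668 and 1936 FPKM. The m6A reader gene Ythdf2 went the other way, from 110.3 to 55.6 FPKM, a difference of -0.97.

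Genes of the meiotic machinery were expressed at both ages. Of 20 genes of meiotic arrest by cAMP 1 was lower, the adenylyl cyclase gene Adcy1, at 2.14 and 0.571 FPKM, and its call was lost under both other scalings. The CDK1 inhibitory kinase gene Wee2 stood at 301 and 306 FPKM. Of 40 genes of CDK1 and the anaphase-promoting complex 1 was lower and none higher, the phosphatase subunit gene Ppp2cb, from 4.89 to 1.27 FPKM. Others were Ccnb1, the cyclin of meiotic entry, with 1008 and 1039.7 FPKM, and the CDK subunit gene Cks2 with 954 and 1058 FPKM. None of 47 spindle checkpoint and kinetochore genes and none of 26 cohesin and condensin genes differed 2-fold. The checkpoint kinase gene Bub1b went from 165 to 268 FPKM, and the meiotic cohesin gene Smc1b from 17.8 to 8.65 FPKM, a difference of -0.96.

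Genes of meiotic prophase, whose recombination steps come before oocyte growth, mostly stood lower within 2-fold. Of 23 kept genes 16 lay below 0, with a median of -0.18, and 5 were lower at 1.5-fold, among them the synaptonemal complex genes Sycp1 (from 10.4 to 5.24 FPKM) and Sycp3 (from 59.8 to 37.4 FPKM). The 2 genes called were both higher, Mei4, of the complex that forms meiotic DNA breaks, from 3.66 to 10.7 FPKM, and Tex11, from 2.56 to 7.34 FPKM.

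In the cytoskeleton, alpha tubulin genes stood in opposite directions. Of 54 tubulin and spindle assembly genes 3 were higher and none lower. Tuba3a went from 76.7 to 174 FPKM and Tuba3b from 9.22 to 22.3 FPKM, and the third was the motor gene Kifc1, from 4.09 to 9.7 FPKM. Tuba1c (from 149 to 77.9 FPKM) and Tuba1b (from 60.1 to 32.7 FPKM) were on the other side, with differences of -0.93 and -0.86. Alpha tubulin genes are near-identical in coding sequence, so how reads were divided among them is uncertain. The most abundant tubulin, Tubb4b, stood at 1108 and 1202 FPKM.

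Of 39 actin and spindle positioning genes 1 was higher and none lower, the formin gene Daam1, from 6.28 to 14.6 FPKM. The nucleators of the oocyte's actin mesh, which moves the spindle to the cortex, stood higher, within 2-fold on the log2(FPKM + 1) scale. Fmn2 went from 14.5 to 27.6 FPKM, Spire1 from 38.6 to 66.1 FPKM and Spire2 from 3.66 to 7.77 FPKM. The actin genes themselves stood lower, also within 2-fold, Actb from 152 to 80.4 FPKM and Actg1 from 356 to 190.5 FPKM, differences of -0.91 and -0.90.

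Of 27 genes of fertilization and egg activation 2 were lower. Cd9, a tetraspanin of the egg membrane needed for sperm fusion, went from 569.7 to 272 FPKM, and Stim1, the ER calcium sensor, from 6.78 to 1.62 FPKM. Folr4 (JUNO), the sperm receptor of the egg, stood at 260.1 and 278 FPKM. None of 17 junction genes differed 2-fold, with Gja4, the connexin that couples the oocyte to granulosa cells, at 495 and 505 FPKM.

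Membrane transport held more lower than higher genes. Of 151 solute carrier genes 9 (5.96%) were lower and 2 (1.32%) higher, and at 1.5-fold 26 (17.2%) were lower and 11 (7.28%) higher, with a median of -0.16. The metal carriers made up part of it. The higher ones were Slc6a15 and Slc5a12. Of 24 genes of zinc and metal handling 4 (16.7%) were lower and none higher, with a median of -0.28. The zinc importer gene Slc39a1 (ZIP1) went from 33.4 to 8.29 FPKM, Slc39a11 from 6.2 to 1.66 FPKM and the Golgi zinc transporter gene Slc30a6 from 13.8 to 4.37 FPKM. The transferrin receptor gene Tfrc went from 7.14 to 1.93 FPKM. The importers known to load the oocyte with zinc were close between the ages: Slc39a6 stood at 98.2 and 95.5 FPKM and Slc39a10 at 83.5 and 83.8 FPKM.

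Of 19 amino acid and carboxylate transport genes 1 was higher, the neutral amino acid carrier gene Slc6a15, from 8.64 to 21.1 FPKM, and the glycine carrier gene Slc6a9 went from 36.2 to 50.8 FPKM. Of 13 glucose and nucleoside transport genes 3 were lower (Slc5a8, Slc5a3 and Slc29a2) and 1 higher (Slc5a12), all under 10 FPKM, and quantile normalization left 1 lower. The glucose carrier gene Slc2a1 went from 33 to 19.4 FPKM. Of 25 genes of cell volume and ion transport 1 was higher and none lower, the kinase gene Stk39 at 1.37 and 3.95 FPKM. Lrrc8a, a subunit of the volume-regulated anion channel, went from 67.5 to 38.2 FPKM, and the water channel gene Aqp9 from 13.7 to 23.5 FPKM, both within 2-fold.

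Genes of the mitochondrial respiratory chain differed little. None of 37 complex I genes differed even 1.5-fold, and they ranged from -0.29 to 0.39. None of 15 ATP synthase genes differed 2-fold. Of 30 genes of complexes II, III and IV 2 were lower, Uqcrc1 and the isoform gene Cox4i2, from 13.5 to 5.28 FPKM, beside the usual isoform gene Cox4i1 with 542 and 642 FPKM. None of 30 genes of pyruvate dehydrogenase and the TCA cycle differed 2-fold. Under quantile normalization the median of complex I went from 0.03 to -0.02 and that of ATP synthase from 0.01 to -0.03. Of 76 mitochondrial ribosome genes 1 was lower, Mrps34, from 9.07 to 3.28 FPKM. Of 35 genes of the mitochondrial genome and dynamics 2 were lower: Tfam, which packs mitochondrial DNA, went from 26.4 to 12 FPKM, and the import receptor gene Tomm20 from 15.5 to 7.14 FPKM, a call lost under quantile normalization.

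In glycolysis, 1 of 12 genes was lower, Gapdh, from 90.2 to 34.4 FPKM, whereas the pyruvate kinase gene Pkm2 stood higher within 2-fold, from 122 to 194 FPKM. Gapdh has many near-identical pseudogenes, so its reads are uncertain. Lipid genes leaned lower. Of 17 genes of lipid droplets and lipid synthesis 13 lay below 0 and 2 were lower, Pnpla3 and the phosphatidate phosphatase gene Lpin1, from 5.86 to 2.41 FPKM, the latter not under quantile normalization. Fatty acid oxidation (23 genes, with Hadh lower, but not under quantile normalization) and cholesterol synthesis (21 genes, none called) each had a median of -0.22.

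One-carbon and nucleotide synthesis leaned lower. Of 30 genes 4 (13.3%) were lower and none higher, 8 (26.7%) were lower at 1.5-fold, and the median was -0.22. Shmt1, the cytosolic serine hydroxymethyltransferase gene, went from 10.2 to 2.26 FPKM, and Impdh2, of guanine nucleotide synthesis, from 28.7 to 9.25 FPKM. Mat2a, which makes the methyl donor S-adenosylmethionine, went from 119 to 53.8 FPKM, whereas its regulatory subunit gene Mat2b stood at 1115 and 1175 FPKM. The other lower gene was Ppat, of purine synthesis, at 4.62 and 1.57 FPKM. All 4 overlap a neighbour on the opposite strand.

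Of 41 genes of glutathione and antioxidant defence 3 were lower and 1 higher, Gstt4 at low FPKM, and 28 lay below 0. The glutathione peroxidase gene Gpx1 went from 43.2 to 15.8 FPKM, the transferase gene Gstm2 from 6.5 to 0.623 FPKM and its relative Gstm1 from 2.78 to 0.46 FPKM. The abundant peroxiredoxin gene Prdx1 stood at 1476 and 1153 FPKM and the superoxide dismutase gene Sod1 at 1145 and 1329 FPKM.

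The translation apparatus differed little. Of 85 cytosolic ribosomal protein genes 2 were lower, Rpl9 from 77.3 to 32.8 FPKM and the retrogene Rpl10l from 14.2 to 4.58 FPKM, and the median was 0.02, or -0.01 under quantile normalization. Ribosomal protein genes have many pseudogenes, so single values are uncertain. The list held 4.02% and 4.11% of all FPKM. Of 78 ribosome biogenesis genes 1 was higher, Gar1, from 3.04 to 8.49 FPKM, and 1 lower, Nob1, of small subunit maturation, from 17.2 to 6.49 FPKM, and none of 37 aminoacyl-tRNA synthetase genes was called. Of 57 translation factor genes 1 was higher and 1 lower. Eef2k, the kinase that slows elongation by phosphorylating eEF2, went from 39.4 to 88.9 FPKM. The scanning factor gene Eif1a went from 19.1 to 4.81 FPKM, beside its X-linked copy Eif1ax with 375 and 420.3 FPKM.

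The list of spliceosome core and SR protein genes leaned higher. It leaves out Cwc22, which was lower as given above, and takes in Lsm1, a gene of mRNA decay. Of 69 genes 1 was higher and 1 lower at 2-fold, 13 (18.8%, against 9.05% of all genes) were higher and 4 (5.80%) lower at 1.5-fold, and the median was 0.17. Snrnp70, a protein of the U1 particle that marks the 5′ splice site, went from 12.5 to 26.4 FPKM. Srsf4 went from 10.8 to 22.5 FPKM and U2af2, which binds the 3′ splice site, from 9.29 to 17.6 FPKM. Lsm1, of the ring that binds mRNA before decapping, was the lower one, from 104 to 44.8 FPKM. In nuclear transport 3 of 54 genes were lower: the importin gene Tnpo3 went from 8.54 to 3.44 FPKM, the importin alpha gene Kpna4 from 3.04 to 0.922 FPKM, and the tRNA exportin gene Xpot from 3.68 to 1.28 FPKM, the last not under quantile normalization. Ipo11 (6.88 and 2.95 FPKM) lay just within 2-fold on the log2(FPKM + 1) scale. In the exosome and nuclear decay list 1 of 26 was lower, C1d, a cofactor of the nuclear exosome, from 16.4 to 5.66 FPKM.

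In the lists of protein quality control few genes were called. None of 43 proteasome genes was called, with a median of 0.12, and 1 of 60 genes of ubiquitin conjugation was higher, Ube2u, from 4.35 to 11.5 FPKM. Of 38 cytosolic chaperones 3 were lower and 1 higher, the latter Fkbp5. Cct6a and Cct4 (from 136 to 65.2 FPKM) were lower, while other subunits of the same chaperonin ring were not called, such as Cct5 with 332 and 367 FPKM and Cct3 with 215 and 208 FPKM. Exons of Cct6a overlap Psph on the opposite strand. Hsf2, a heat shock transcription factor gene, went from 32.8 to 13 FPKM. The abundant HSP90 gene Hsp90aa1 stood at 1249 and 969.7 FPKM.

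In the ER, Xbp1, the transcription factor gene whose mRNA is spliced in the unfolded protein response, went from 10.6 to 2.57 FPKM, 1 of 2 lower genes of 35 in that list. The other was the oxidase gene Ero1l at low FPKM, and the chaperone gene Calr stood at 253 and 274 FPKM. The ER genes H47 and Tmx1, lower as given above, are among those outside this list. Of 50 genes of the translocon and N-glycosylation 3 were lower and 1 higher, Man1a at low FPKM, and 33 lay below 0. Spcs3, of the signal peptidase, went from 21.8 to 7.79 FPKM, Sec61a2 from 7.32 to 1.87 FPKM and Alg5 from 7.28 to 2.26 FPKM. In Golgi traffic 1 of 46 genes was lower, the small GTPase gene Arf4, from 30.4 to 11.7 FPKM. Genes of N-glycosylation and of Golgi traffic outside these lists, some of them 2-fold lower, are not counted. Of 53 endosome and lysosome genes 1 was higher, Atp6v0a4 at low FPKM, and 1 lower, Rab11b from 16 to 6.91 FPKM, and 10 were lower at 1.5-fold, among them the cathepsin genes Ctsb (from 47.9 to 24.4 FPKM) and Ctsd (from 79.1 to 40.7 FPKM). None of the 31 autophagy genes listed was called. The list leaves out Wdr45l, now Wdr45b, which went from 17.9 to 5.16 FPKM.

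Most of the chromatin genes listed here were close between the ages, with exceptions mainly among histone variants and chaperones. Chromatin genes outside these lists, some of them lower, are not counted. Of 30 histone variant and chaperone genes 2 were higher and 1 lower. H2afz, the gene of histone H2A.Z, went from 233 to 89.6 FPKM. Chaf1a, of the CAF-1 complex that places histones H3 and H4, went from 31.4 to 76.2 FPKM, and Anp32b, of a family that binds histones, from 75.5 to 158 FPKM. Exons of Chaf1a overlap Ubxn6 on the opposite strand. Npm2, which decondenses sperm chromatin, stood at 1527 and 1308 FPKM. Replication-dependent histone mRNAs lack a poly(A) tail, and 19 of 68 passed the filter, with Hist1h4c (1.48 and 5.61 FPKM) higher and Hist2h2bb (3.75 and 1.23 FPKM) lower.

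Of 18 DNA methylation genes, 45 of histone methylation and 53 of histone acetylation and remodelling none was called. Dnmt3l, the cofactor of de novo methylation that is laid down in growing oocytes, went from 82.3 to 139.6 FPKM, and its catalytic partner gene Dnmt3a from 17.8 to 22.1 FPKM. The histone demethylase gene Kdm1b, needed for methylation at imprinted genes, went from 211 to 136 FPKM. These 3 genes lay within 2-fold. Of 19 genes of Polycomb complex 1 only Cbx8 was lower, at 3.94 and 1.44 FPKM, and not under quantile normalization.

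Germ cell genes of transposon control were among the lower ones. Of 20 genes of the piRNA pathway 2 were lower and 1 higher, with a median of -0.17. Ddx4 (mouse VASA), the germ cell helicase gene, went from 149 to 49 FPKM, and Piwil2, whose product binds piRNAs, from 7.28 to 2.1 FPKM. Piwil1 was the higher one, at 1.26 and 3.67 FPKM. Gtsf1, the most abundant gene of the list, stood at 792 and 901 FPKM. None of 43 replication, 57 repair and 11 small RNA machinery genes was called. Of 21 genes of the p53 family and cell death 1 was lower, the caspase gene Casp6, from 6.2 to 2.37 FPKM, and Bcl2l10, a survival gene of the oocyte, stood at 2345 and 2546 FPKM.

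Some gene families are known mainly from oocytes. Of 13 genes of the oocyte Fbxw cluster, F-box proteins of a tandem array, none differed even 1.5-fold, with a range from -0.27 to 0.20 and Fbxw24 at 3148 and 2689 FPKM. Of 27 kept genes of the oogenesin, Tcl1 and Obox families none was called, 3 were higher at 1.5-fold and 22 lay above 0, with a median of 0.22. Tcl1 stood at 1757 and 1837 FPKM and Rfpl4 at 1571 and 1728 FPKM. Copies in such arrays share sequence and may share reads. Of 8 kept genes of the 2-cell stage 1 was lower, Eif1a, and the best expressed Zscan4 copy, Zscan4d, stood at 5.49 and 4.39 FPKM.

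Zinc finger genes with Zfp symbols leaned lower. Of 270 genes 15 (5.56%) were lower and 1 (0.370%) higher, at 1.5-fold 50 (18.5%) were lower and 9 (3.33%) higher, and 183 lay below 0, with a median of -0.19. Zfp707 went from 47.7 to 14.7 FPKM, Zfp964 from 29.8 to 10.2 FPKM, Zfp62 from 23.3 to 9.31 FPKM and Zfp191 from 16.3 to 5.29 FPKM. The higher gene was Zfp708, from 17.4 to 36.9 FPKM, which overlaps Rslcan18 on the same strand. Zfp57, the guardian of imprinted methylation and the most abundant of the family, went from 864 to 1090.5 FPKM within 2-fold. Many zinc finger genes are similar in sequence, so reads may be shared.

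Long non-coding genes held more higher than lower members. The 409 long non-coding genes in RefSeq included 20 higher (4.89%) and 10 lower ones (2.44%), median 0.09, against 201 higher and 340 lower of 10472 protein-coding genes. By symbol alone, whether coding or not, of 283 models with Gm numbers 14 were higher and 6 lower, and of 833 Rik clones 24 and 24. Snhg9, a host of small nucleolar RNAs, went from 12.6 to 27.6 FPKM, the one gene called of 12 named non-coding RNAs, of which Snhg6 was the most abundant (97 and 132 FPKM). Of 32 olfactory and vomeronasal receptor genes that passed the filter, of 1452 listed, 2 were higher, the neighbouring-numbered Olfr288 (from 18.9 to 48.4 FPKM) and Olfr287 (from 6.69 to 15.2 FPKM).

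The genes called in WT oocytes were then followed from day 14 to day 21 in Mtr4-null oocytes, which share no sample with the WT groups. Skiv2l2 itself stood at 1.57 and 3.86 FPKM there. Their column of day 21 may rest on fewer libraries than its label count. In that column the values of the most abundant genes, such as 2791.885 FPKM for Ldhb and 1972.485 FPKM for Gdf9, do not end in repeating 3 or 6, as means of 3 often do. In WT oocytes the 230 higher genes had a median of 3.05 FPKM at day 14 and 9.06 FPKM at day 21. In Mtr4-null oocytes their median was 2.02 and 1.61 FPKM, and 17 (7.39%) were higher and 26 (11.3%) lower, against 5.68% and 19.5% of all genes. Egfr stood at 4.0 and 2.23 FPKM there, Cxcr3 at 1.51 and 0.352 FPKM and Rgn at 2.63 and 3.61 FPKM, so these 3 did not reach their WT level of day 21. Htr5a was one of the 17, at 0.895 and 6.58 FPKM.

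The 357 lower genes had a median of 9.45 FPKM at day 14 and 3.28 FPKM at day 21 in WT oocytes. In Mtr4-null oocytes their median was 13.7 and 15.9 FPKM. There 54 (15.1%) were higher and 52 (14.6%) lower, against 5.68% and 19.5% of all genes. H47 stood at 31.4 and 61.9 FPKM there, Xbp1 at 21 and 44.7 FPKM, and H2afz at 369 and 765 FPKM. These 3 genes thus moved in the opposite direction from WT. Pnpla3 (14.1 and 4.25 FPKM), Ldhc (91.9 and 24.1 FPKM) and Cwc22 (82 and 16.2 FPKM) were lower at day 21 there too. Relative to the median of all genes, which was -0.37 between the ages in Mtr4-null oocytes, the higher genes lay at 0.27 and the lower genes at 0.34. Both depended on the settings: without the filter on low values they were 0.00989 and 0.041, and for the higher genes the value was 0.12 under quantile normalization and 0.079 at 1.5-fold. Neither difference between genotypes was tested.

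**Figure D5:**
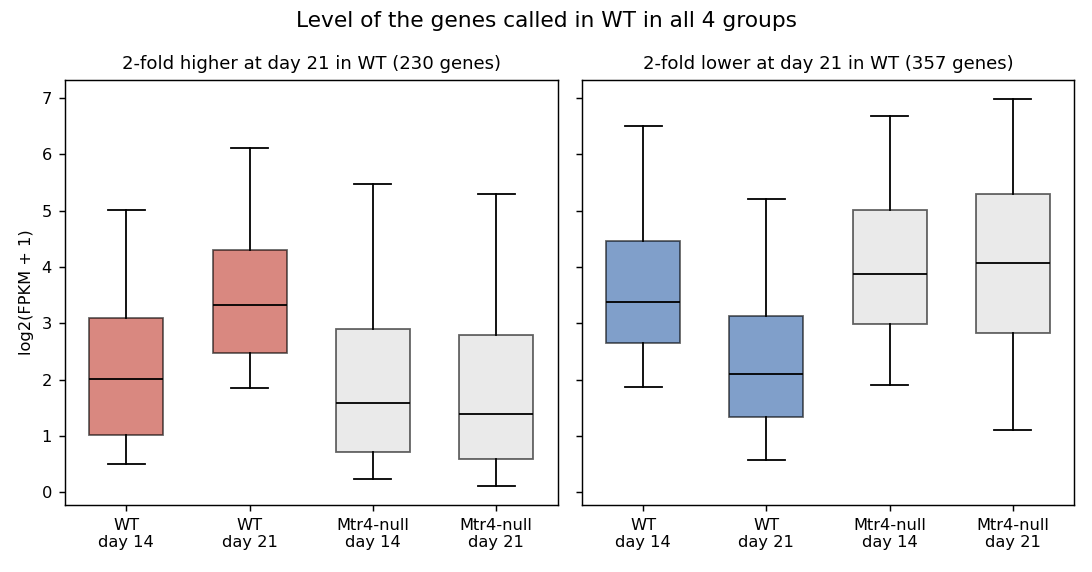
Levels, as log2(FPKM + 1), of the 230 genes higher (left) and 357 genes lower (right) at day 21 in WT oocytes, in the 4 groups; boxes are quartiles over genes, lines are medians and whiskers the 5th and 95th percentiles over genes. The WT boxes (colour) differ by choice of the genes, whereas the medians of the Mtr4-null boxes (grey) differ less between the ages, at 2.02 and 1.61 FPKM on the left and 13.7 and 15.9 FPKM on the right.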

How the data were processed

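Poly(A) RNA of mouse oocytes was measured in 12 samples by label, 3 per genotype and age. The deposited values are FPKM, averaged by the authors to 1 column per group, so design fits that need single libraries were replaced by differences of size. The tools were Cufflinks 2.2.1 and TopHat2 2.1.1, and the build mm9, per the submitters' processing notes, which state no role. Decimals that repeat 3 or 6, as averaging over 3 gives, close 56.4% and 55.4% of the nonzero WT values. Differences of log2(FPKM + 1) were computed with Python 3.11.15 and pandas 2.3.3. The counting was run on large changes planted without noise in well expressed genes, a check of the code only. The members and gene lists were chosen with earlier results of these data known. Named genes are the 25 largest differences each way with at least 10 FPKM, the 15 most abundant genes of each age, and per list up to 6 called genes each way with at least 5 FPKM plus the 4 most abundant. RefSeq matched 10984 of 11078 genes. Transcript starts, UTRs and overlaps came from GENCODE vM21 (GRCm38), promoters from RefSeq (GRCm38.p6). Exons of 67 of 422 named genes overlap another gene. Alternatives were a pseudocount of 0.1, no filter or a minimum of 5 FPKM, median-of-ratios scaling and quantile normalization.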

Additional observations from a re-analysis of the deposited data

How the results depend on the processing

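No paired analysis was possible because the deposited values are means per group, and for the same reason leaving out single libraries was not run. The 230 higher and 357 lower genes became 427 and 633 with a pseudocount of 0.1, 127 and 208 with a minimum mean of 5 FPKM, and 1003 and 1216 at 1.5-fold. No filter gave 245 and 364, median-of-ratios scaling 231 and 353, and quantile normalization 256 and 334. None of the 587 called genes changed direction under either scaling. Median-of-ratios scaling took 4 of them within 2-fold and quantile normalization 32. Of those named in the text these were Adcy1 and Tgfbr1 under both, and 2310036O22Rik, Cbx8, Hadh, Lpin1, Slc29a2, Slc5a3, Spry4, Tomm20, Xpot and Zp2 under quantile normalization alone. In Mtr4-null oocytes the median of the genes higher in WT, relative to all genes, was 0.27 as reported, 0.14 with a pseudocount of 0.1, 0.00989 without the filter, 0.17 with a minimum of 5 FPKM, 0.12 under quantile normalization and 0.079 at 1.5-fold. That of the genes lower in WT was 0.34 as reported and 0.041 without the filter. The cause of these shifts was not tested. Without values per library, error and depth limit every difference here.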

Other observations

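The values in this section were looked at after the data were seen, and none is tested. Genes that are common references in RT-qPCR differed in part with oocyte age. Of 15 such genes 14 passed the filter, 3 were at least 2-fold lower and none higher, and 10 lay below 0. Gapdh went from 90.2 FPKM at day 14 to 34.4 FPKM at day 21, H2afz from 233 to 89.6 FPKM and the cyclophilin gene Ppia from 618 to 280.3 FPKM. Actb and Actg1 differed by -0.91 and -0.90. Hprt (94.7 and 92 FPKM), B2m (78.5 and 79 FPKM), Ywhaz (352 and 365 FPKM) and Rpl19 (412 and 444 FPKM) were among the closest. Several of these genes have near-identical pseudogenes, so single values are uncertain.

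Some genes that respond to TGF-beta and BMP signals in other cells were lower. Of 14 such genes, listed after several had been seen among the largest negative differences, 9 passed the filter and 4 of these were 2-fold lower, namely Snai1, Tgif1, Id3 and the BMP-binding protein gene Twsg1, the last from 21.8 to 6.39 FPKM. Id2 went from 8.42 to 3.97 FPKM and Bambi from 2.3 to 0.772 FPKM, both within 2-fold on the log2(FPKM + 1) scale. Ski (60.9 and 65.8 FPKM) and Tgif2 (15.4 and 17.6 FPKM) stood slightly higher, and Smad6 and Smad7 were under 1 FPKM at both ages.

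Some paralogues stood in opposite directions. The serotonin receptor gene Htr5b went from 14.4 to 4.15 FPKM, against the higher Htr5a. The elongation factor gene Ell went from 10.9 to 23.5 FPKM and Ell2 from 13.4 to 5.63 FPKM. Both cyclin E genes were lower, Ccne1 from 17.6 to 7.79 FPKM and Ccne2 from 33.7 to 14.6 FPKM, whereas Ccna2 stood at 104 and 91.3 FPKM. The ETS factor gene Etv1 went from 5.71 to 15.3 FPKM, and its relative Etv5 stood at 2.65 and 2.08 FPKM. Among abundant genes outside the lists, Gnrh1, which encodes gonadotropin-releasing hormone, went from 113 to 263 FPKM, and the homeobox gene Noto from 308 to 139 FPKM.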
